A study of Sus scrofa with 7 samples.

Results

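The genes described here are the multimerins MMRN1 and MMRN2, the emilins EMILIN1 and EMILIN2, and the endothelial receptors CD93 and CLEC14A. They are 6 of 20653 genes measured by RNA sequencing in pig myocardium, and all 6 had enough reads to be among the 15661 genes tested. They were picked by gene symbol. Where a gene has several transcript rows, the one with the most reads on average over the 7 libraries was used. The family was taken up because MMRN2 stood out in the comparison described below, so the values of MMRN2 are given as a description, with no test. The other 5 were added as relatives and receptors of MMRN2, with earlier results of these data known.

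The tissue came from the anterior midventricular wall of male farm pigs. It was taken 14 weeks after an infarction caused in the region supplied by the left circumflex artery (LCX). All animals had the infarction, and all were given AAV5, an adeno-associated viral vector used to deliver genes to the heart. In the 3 libraries labelled hrLuc the vector carried luciferase, a reporter enzyme. In the 4 libraries labelled S100a1 it carried the human gene for S100A1, which binds calcium and acts on calcium cycling in cardiomyocytes. The titles name each library as a pig. Neither the vector's promoter nor the animals' age is stated in the labels used here.

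Multimerins and emilins are secreted glycoproteins that assemble into large disulphide-linked multimers in the extracellular matrix. They share a cysteine-rich EMI domain, long coiled coils and a C-terminal domain related to complement C1q. MMRN2 lies on the outer side of blood vessels and binds CD93 and CLEC14A, lectin-like transmembrane proteins of endothelial cells, and through CD93 it takes part in the migration of endothelial cells and the deposition of fibronectin. MMRN1 is stored in platelets and in endothelial cells and binds coagulation factor V. EMILIN1 is a component of elastic fibres that restrains the maturation of TGF-beta, and EMILIN2 is a related matrix protein.

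Counting 1 row per gene, depth ran from 28679324 to 38409552 reads per library. The heart muscle genes MYH7 and TNNT2 and the endothelial genes PECAM1, CDH5 and VWF were read in every library. The pig S100A1 gene did not stand higher under the S100a1 label, with 7718 ± 1298 normalized counts in hrLuc (SD, n = 3) and 5933 ± 1064 in S100a1 (SD, n = 4). The labels do not say whether reads of the human sequence were counted on it, so it is no check of the labels. The labels name no batch. Library numbers in the descriptions are 33, 39 and 45 for hrLuc and 57, 9, 15 and 21 for S100a1. The hrLuc numbers lie together, with S100a1 numbers below and above them and none between, so the groups are not mixed in this order. What the numbers stand for is not stated. P-values of the fits set the difference between the groups against the spread among libraries of the same group, in these 7 libraries.

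MMRN2 was lower in each of the 4 libraries labelled S100a1 than in any hrLuc library. The normalized count, which is the read count divided by a size factor of the library, was 3876, 4792 and 4769 in the 3 hrLuc libraries. The S100a1 libraries had 2235, 2448, 2441 and 2492. The highest S100a1 library lay far below the lowest hrLuc library, and the S100a1 libraries were close to each other. The means were 4479 ± 522 (SD, n = 3) and 2404 ± 115 (SD, n = 4), so the S100a1 mean was 53.7% of the hrLuc mean. The log2 fold change of S100a1 over hrLuc, fitted on log2(value + 0.5), was -0.89 ± 0.09 (SE), and 123 of the 15661 genes tested had a lower one. MMRN2 has 1 transcript row in the table. In bulk tissue, fewer cells of a type and less RNA per cell cannot be told apart.

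**Figure D1:**
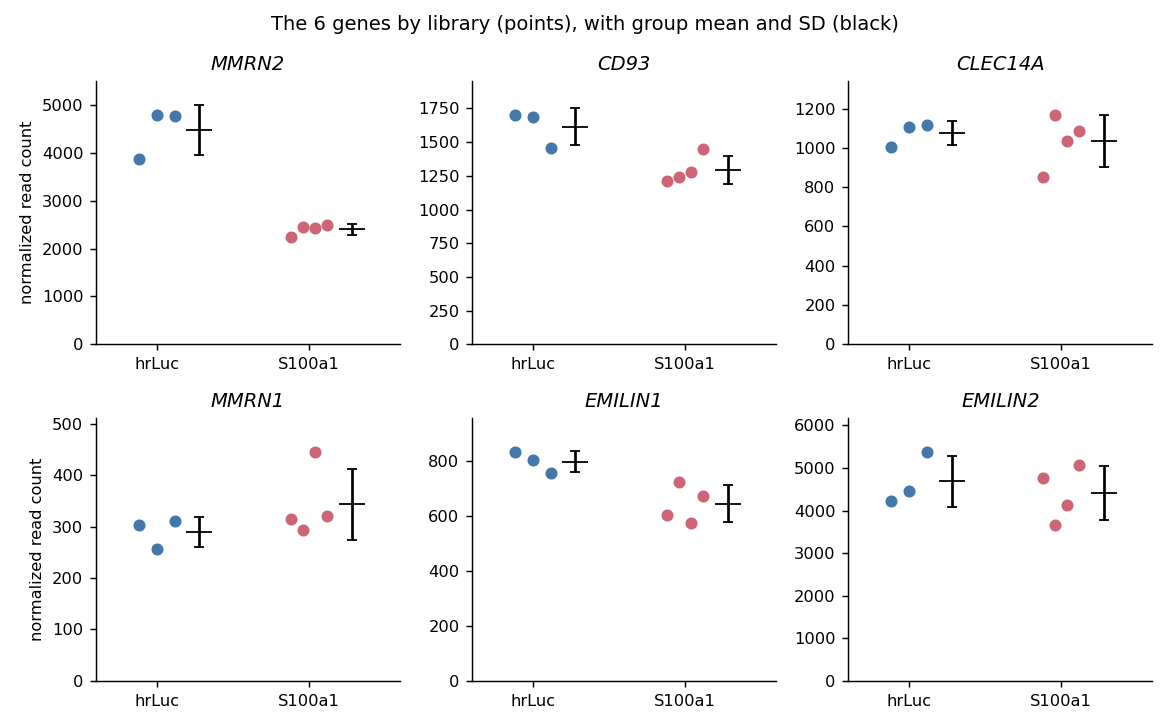
Normalized read count of each of the 6 genes (vertical axis, from 0) in the 3 hrLuc and 4 S100a1 libraries (points), with the group mean and SD in black. The groups are apart in MMRN2 (S100a1 2235 to 2492, hrLuc 3876 to 4792), narrowly apart in CD93 and EMILIN1, and overlap in CLEC14A, MMRN1 and EMILIN2.

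None of the other 5 genes passed the threshold of 0.05 on the adjusted p. In the same fit over all genes 0.0128% of the genes tested passed (2 genes, limma with Benjamini-Hochberg adjustment), and 8.26% had an unadjusted p under 0.05, as CD93 and EMILIN1 did. CD93 and EMILIN1 were lower in each S100a1 library than in any hrLuc library, a pattern found in 5.31% of the genes tested. The intervals given below for the log2 fold change are 95% intervals of the limma fit, without adjustment for the number of genes.

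CD93, the receptor that MMRN2 binds on endothelial cells, had 1699, 1690 and 1454 normalized counts in the hrLuc libraries. The S100a1 libraries had 1214, 1245, 1281 and 1447. The groups did not overlap, but S100a1 replicate 4 and hrLuc replicate 3 nearly met. The log2 fold change was -0.32 ± 0.09 (SE), with an interval of -0.52 to -0.11 and an adjusted p of 0.515 (limma). An exact two-sided permutation test over all 35 assignments of the libraries to groups of 3 and 4 gave p = 0.0571, where the smallest possible p is 0.0286. The second, lower transcript row of CD93 had a log2 fold change of -0.30 ± 0.07 (SE) in a fit over all distinct transcript rows (adjusted p = 0.47, limma), and its groups did not overlap either. In the authors' deposited table the adjusted p of this row is 0.0521 and that of the higher row 0.124.

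CLEC14A, the other receptor, had 1007, 1106 and 1119 normalized counts in hrLuc and 850.6, 1166, 1037 and 1086 in S100a1. The groups overlapped, and S100a1 replicates 1 and 2 were the lowest and the highest of all 7 libraries. Its log2 fold change was -0.07 ± 0.11 (SE), with an interval of -0.31 to 0.18 (adjusted p = 0.882, limma). Without S100a1 replicate 1 it was 0.03, on the other side of 0.

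MMRN1, the multimerin of platelets and endothelium, had 302.1, 256.6 and 310.1 normalized counts in hrLuc and 314.5, 292.4, 444.8 and 320.3 in S100a1. S100a1 replicate 3 stood above the other 6 libraries, which overlapped. Its log2 fold change was 0.23 ± 0.16 (SE), with an interval of -0.12 to 0.58 (adjusted p = 0.692, limma). It is the 1 gene of the 6 with a positive value, and 1666 of the genes tested had a higher one. MMRN1 overlaps LOC106504767, a long noncoding RNA gene, over 21559 bases, so some of its reads could come from there.

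EMILIN1, the emilin of elastic fibres, had 831.9, 802.9 and 756.6 normalized counts in hrLuc. The S100a1 libraries had 602.8, 724.8, 575.7 and 672.9, all below the hrLuc libraries. In the fit EMILIN1 had a log2 fold change of -0.31 ± 0.10 (SE), with an interval of -0.53 to -0.09, an adjusted p of 0.535 (limma) and an exact two-sided permutation p of 0.0571. Its second transcript row gave -0.37 ± 0.11 (SE, adjusted p = 0.478, limma over transcript rows).

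EMILIN2 had 4226, 4452 and 5376 normalized counts in hrLuc and 4775, 3661, 4144 and 5067 in S100a1. Both groups spread widely and overlapped. The log2 fold change was -0.09 ± 0.13 (SE), with an interval of -0.38 to 0.20 (adjusted p = 0.855, limma), and it was 0.01 without hrLuc replicate 3. Its second row gave -0.09 ± 0.12. Levels are not compared between genes here, because the table gives no transcript lengths.

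On Sscrofa11.1, MMRN2 lies at chr14:87891585-87916327 and EMILIN1 at chr3:112031910-112039928. EMILIN2 lies at chr6:103730618-103786921, CLEC14A at chr7:61825688-61827960, MMRN1 at chr8:129113951-129173413 and CD93 at chr17:30233275-30240041. RefSeq annotates no gene overlapping EMILIN1, EMILIN2, CD93 or CLEC14A. The end of MMRN2 with the lower coordinate overlaps BMPR1A, which encodes a type 1 receptor for bone morphogenetic proteins, over 206 bases (BMPR1A spans chr14:87743270-87891790). The strand and exons of these genes are not in the tables used here.

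In 3 of the 5 transcript rows of BMPR1A the S100a1 mean was 68.8% to 77.9% of the hrLuc mean, and in the other 2 rows, which hold the most reads, it was 94.2%. In the highest row, XM_021072031, the normalized counts were 3650, 3735 and 3591 in hrLuc and 3581, 3221, 3460 and 3527 in S100a1. These ranges nearly met, with a log2 fold change of -0.09 ± 0.06 (SE), and XM_021072032 held almost the same values. In the lowest row, NM_001204767, the counts were 1296, 1216 and 1212 in hrLuc and 804.8, 874.8, 892 and 843.1 in S100a1. Here the groups were well apart, and the log2 fold change was -0.54 ± 0.07 (SE). XM_005671180 was at -0.47 ± 0.06 and XM_021072033 at -0.36 ± 0.05, and in all 5 rows each S100a1 library was below each hrLuc library, a pattern found in 4.88% of the distinct transcript rows.

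None of these BMPR1A rows passed in the fit over 33305 distinct transcript rows, in which 0% of the rows passed (limma), 2880 rows had an unadjusted p under 0.05, and edgeR and limma-voom called 0. The adjusted p was 0.192 for NM_001204767 and XM_005671180 and 0.271 for XM_021072033 (limma), and each of the 3 reached the smallest exact permutation p of 0.0286. DESeq2 on the recovered reads, which called 0.847% of the rows it tested, called these 3, with adjusted p of 8.78e-08, 1.49e-08 and 1.43e-06. The authors' deposited table, in which 0.927% of the rows with an adjusted p have one under 0.05, gives them 1.19e-07, 2.66e-08 and 1.27e-06. NM_001204767 made up 33.9% ± 1.48 (SD, n = 3) of the count of the highest BMPR1A row in hrLuc and 24.8% ± 2.06 in S100a1 (SD, n = 4), with no overlap. The rows of BMPR1A are not independent of each other, since the same reads can stand in several, and whether reads in the overlap were counted for both BMPR1A and MMRN2 was not tested. The group means differed by 388 normalized counts in NM_001204767, 602 in XM_005671180, 548 in XM_021072033 and 211 in each of the other 2 rows, and by 2075 in MMRN2.

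**Figure D2:**
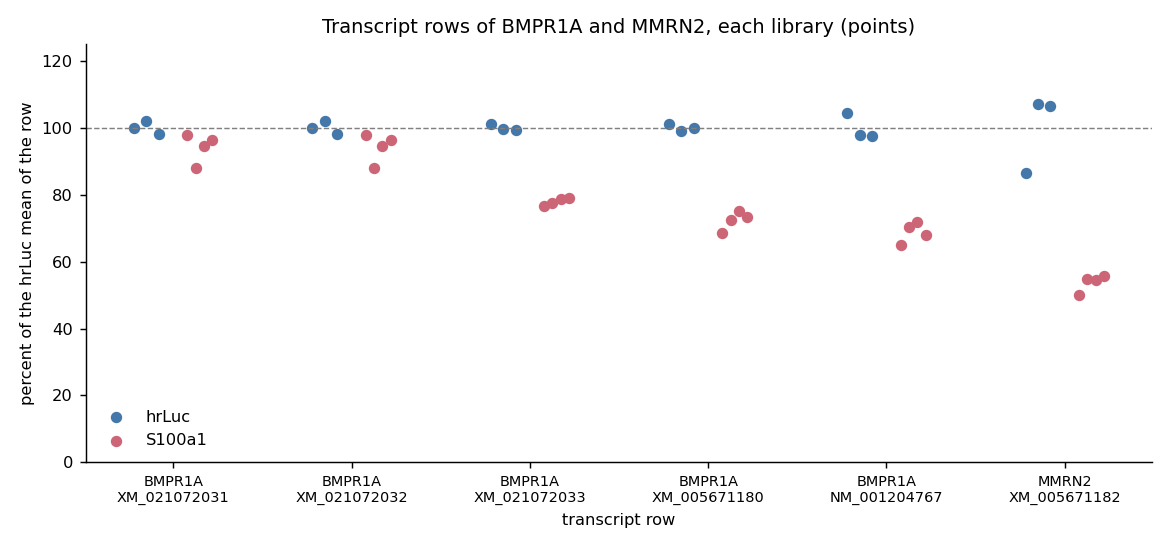
Each library's normalized count as a percentage of the hrLuc mean of the row (vertical axis, from 0) for the 5 transcript rows of BMPR1A and the row of MMRN2 (horizontal axis). The S100a1 points lie just under the hrLuc points in the first 2 rows and apart from them in the other rows, with means of 68.8% in NM_001204767 and 53.7% in MMRN2.

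The protein-coding genes around MMRN2 were examined next. Within 500 kb lay 18 other protein-coding genes, of which 14 had enough reads to be tested and 0 passed (limma, edgeR, limma-voom or DESeq2), with 2 at an unadjusted p under 0.05 in limma, against 8.26% of all genes tested. Of the 14, 8 had a negative log2 fold change, and in 4 the groups did not overlap, against 9.27% of all genes tested. Among these 4, WAPL, a regulator of cohesin, was at -0.10 ± 0.06 (SE) and BMPR1A at -0.09 ± 0.06. ADIRF, an adipogenesis regulatory factor, was higher at 0.41 ± 0.17, and LOC100625711 was higher at 0.51 ± 0.17. SNCG, which begins just beyond MMRN2, was at -0.09 ± 0.35 with few reads, and LDB3, a Z-disc protein of heart muscle, was at 0.05 ± 0.11. GLUD1, a mitochondrial glutamate dehydrogenase, was at 0.04 ± 0.07. Each gene is entered here by its highest row. The BMPR1A rows at -0.36, -0.47 and -0.54 (limma over transcript rows) were called by DESeq2, as given above.

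**Figure D3:**
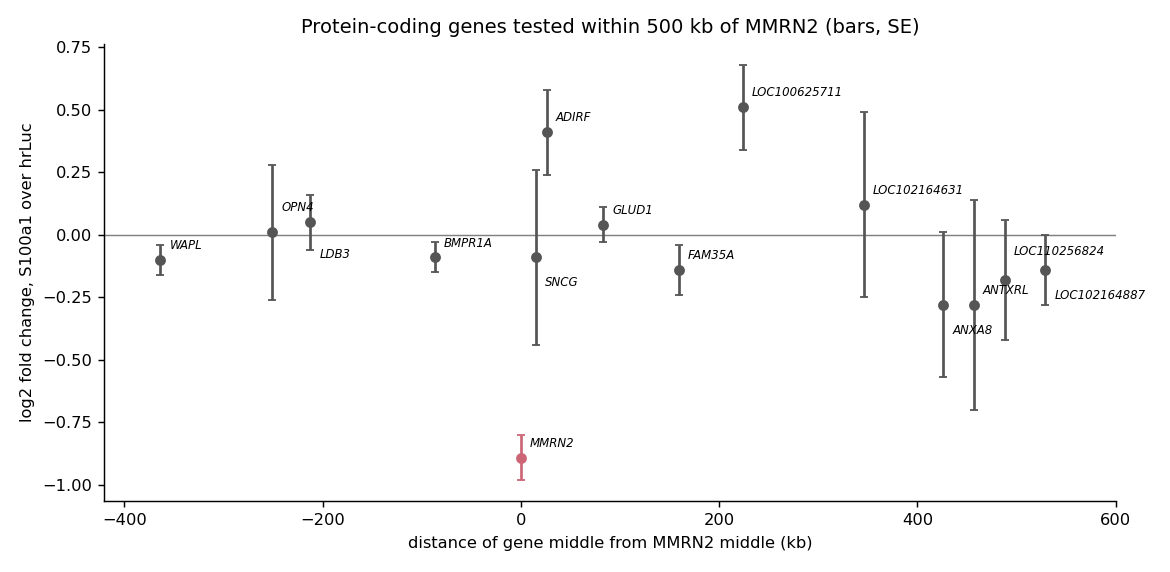
Log2 fold change of S100a1 over hrLuc with its SE (vertical axis) for MMRN2 (red) and the 14 other protein-coding genes tested within 500 kb (grey), by the distance of the gene's middle from that of MMRN2. MMRN2 lies at -0.89, and the others between -0.28 and 0.51. Each gene is drawn by its highest row, for BMPR1A the one at -0.09.

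No blood endothelial marker passed, and their sums overlapped between the groups. All 24 were tested and 0 passed (limma), with 2 at an unadjusted p under 0.05, against 8.26% of all genes tested. Of these, 18 had a negative log2 fold change and the median was -0.04, where the median of all genes tested was -0.024 and 8847 of the 15661 were negative. PECAM1, an adhesion molecule of endothelial junctions, was at -0.04 ± 0.07 (SE) and CDH5, VE-cadherin, at -0.17 ± 0.09. The 2 of smallest p were TEK, the angiopoietin receptor, at 0.29 ± 0.10 and FLT1, a VEGF receptor, at 0.31 ± 0.11. The lowest value of the list was -0.19. The summed normalized count of the 24 ranged from 50397 to 57014 in hrLuc and from 51295 to 53514 in S100a1.

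Against that sum, MMRN2 made up 7.69%, 8.4% and 9.39% in the hrLuc libraries. It made up 4.18%, 4.66%, 4.76% and 4.7% in the S100a1 libraries, and the groups did not overlap. CD93 made up 3.07% ± 0.269 in hrLuc (SD, n = 3) and 2.47% ± 0.199 in S100a1 (SD, n = 4), again with no overlap, and CLEC14A 2.05% ± 0.139 and 1.97% ± 0.268 with overlap. Relative to its receptors, MMRN2 had 2.8 ± 0.5 reads per CD93 read in hrLuc and 1.86 ± 0.105 in S100a1. Per CLEC14A read it had 4.15 ± 0.262 in hrLuc and 2.34 ± 0.218 in S100a1. These are ratios of reads and not of molecules, and those with MMRN2 in them are descriptions of the same comparison.

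**Figure D4:**
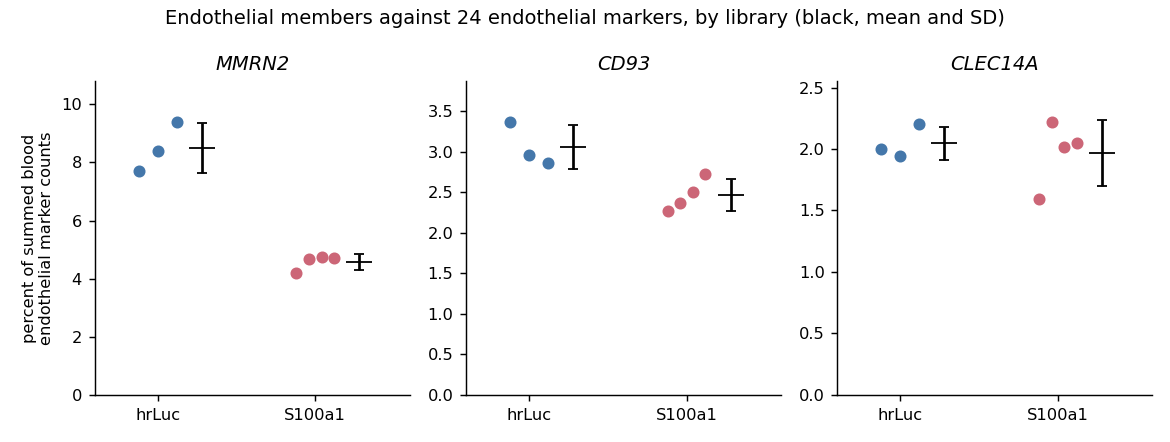
Normalized count of MMRN2, CD93 and CLEC14A as a percentage of the summed count of 24 blood endothelial markers (vertical axes, from 0) in each library (points), with the group mean and SD in black. The S100a1 libraries lie at 4.18% to 4.76% for MMRN2 and the hrLuc libraries at 7.69% to 9.39%.

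Further members of the same families were measured too. In the list of EMILIN, multimerin and group 14 C-type lectin genes, 9 genes other than MMRN2 were tested, 7 had a negative log2 fold change, 0 passed (limma, with 3 at an unadjusted p under 0.05, against 8.26% of all genes tested), and the median was -0.09. CD248, a lectin of pericytes and fibroblasts related to CD93, was at -0.52 ± 0.16 (SE, adjusted p = 0.535, limma) with no overlap between the groups. THBD, thrombomodulin, a further lectin of this group that acts in anticoagulation, was at -0.09 ± 0.13, and EMILIN3 was at 0.04 ± 0.24. EMID1, which carries an EMI domain, was at -0.28 ± 0.24.

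Genes for proteins known to bind or act with these molecules were mixed in direction. Of 18 tested, 13 had a negative log2 fold change and 5 a positive one, the median was -0.10, and 0 passed (limma, with 5 at an unadjusted p under 0.05, against 8.26% of all genes tested). In 5 of the 18 every S100a1 library was below every hrLuc library (5.31% of all genes tested), and in 2 every one was above (3.96% of all genes tested). ELN, the elastin that EMILIN1 accompanies in elastic fibres, had 3993 ± 698 normalized counts (SD, n = 3) in hrLuc against 2641 ± 484 in S100a1 (SD, n = 4), with a log2 fold change of -0.60 ± 0.15 (SE, adjusted p = 0.514, limma). FBLN5, fibulin-5, another protein of elastic fibres, was in the opposite direction at 0.27 ± 0.08 (adjusted p = 0.514, limma). VEGFA, the angiogenic growth factor that MMRN2 can bind, had 6685 ± 291 in hrLuc (SD, n = 3) and 7909 ± 321 in S100a1 (SD, n = 4), at 0.24 ± 0.06 (SE, adjusted p = 0.514, limma), and was higher in each S100a1 library.

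The integrin chains that carry these contacts lay on both sides of 0. ITGB1, the beta-1 chain, was at -0.16 ± 0.07 (SE) and ITGA4, a partner chain in the EMILIN1 receptor, at -0.61 ± 0.19, both with no overlap. ITGA5, the fibronectin receptor chain, was at 0.13 ± 0.11, and ITGA9 at 0.09 ± 0.15. FN1, fibronectin, was at -0.29 ± 0.15, and IGFBP7, another ligand of CD93, at -0.09 ± 0.08. KDR, the main VEGF receptor of endothelium, was at -0.11 ± 0.10. For F5, coagulation factor V, the libraries spread too widely to place the difference (0.52 ± 0.62).

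Of the genes of angiogenic endothelium, 21 were tested, 15 had a negative log2 fold change, the median was -0.14 and 0 passed (limma, with 5 at an unadjusted p under 0.05, against 8.26% of all genes tested). The 2 of smallest p were NID2, a basement membrane nidogen, at -0.36 ± 0.09 (SE, adjusted p = 0.514, limma), and INSR, the insulin receptor, at 0.36 ± 0.11 (adjusted p = 0.53, limma). Every S100a1 library was lower in NID2 (5.31% of all genes tested) and higher in INSR (3.96% of all genes tested). Values in this list ran from -0.95 to 0.44. COL4A1 and COL4A2, the main collagens of basement membrane, were at -0.17 ± 0.12 and -0.14 ± 0.09.

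**Figure D5:**
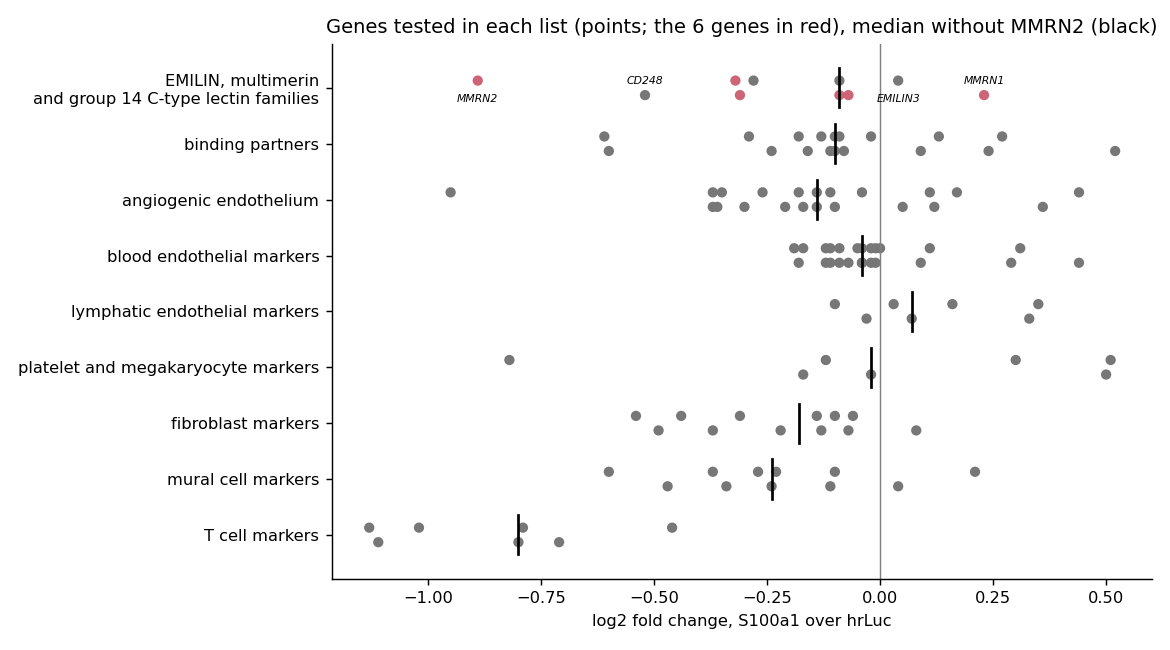
Log2 fold change of S100a1 over hrLuc (horizontal axis) for each gene tested (points) in 9 lists, with the 6 genes in red and the median without MMRN2 as a black line. MMRN2 lies at -0.89, and the blood endothelial markers run from -0.19 to 0.44. The genes of angiogenic endothelium run from -0.95 to 0.44 and the T cell markers from -1.13 to -0.46.

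Markers of other cells were read beside these values. Of the lymphatic endothelial markers 7 of 8 were tested and 2 were negative (median 0.07), and the sum was 11349 to 12675 in hrLuc and 12365 to 12687 in S100a1, most of it PROX1, which heart muscle cells also express. TFF3 was at 0 in all libraries. Of the platelet markers 4 of 7 tested were negative (median -0.02, sums of 411 to 430 and 403 to 462), and PPBP, a platelet-defining chemokine, was at or near 0. Of 12 fibroblast markers 11 were negative (median -0.18), with sums of 137028 to 158639 in hrLuc and 89396 to 142202 in S100a1. Of 11 mural cell markers 9 were negative (median -0.24, sums of 96867 to 114786 and 88688 to 109019). Most of these sums was DES alone (60249 to 83431 in hrLuc and 57105 to 74131 in S100a1), so they mainly follow that gene. All 7 T cell markers tested were negative (median -0.80), with sums of 401 to 838 in hrLuc and 273 to 442 in S100a1.

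In the remaining lists 6 of 12 macrophage and monocyte markers were negative (median 0.01, sums of 7771 to 11761 and 7153 to 10854). Of the neutrophil markers 3 of 4 tested were negative (median -0.18, sums of 122 to 142 and 118 to 133), with S100A8 and S100A9 at or near 0. Of the endocardial markers 2 of 3 tested were negative (median -0.07, sums of 5784 to 6343 and 5766 to 6995). Of 11 cardiomyocyte markers 4 were negative (median 0.08, sums of 1814210 to 2082258 and 1932841 to 2136588). No marker in any of these lists passed in limma, and the summed counts of the groups overlapped in each. An unadjusted p under 0.05 was found for 4 fibroblast, 2 mural cell, 3 T cell, 1 platelet and 1 cardiomyocyte marker (limma, against 8.26% of all genes tested). Over all the lists, MMRN2 left out, edgeR and limma-voom called 0 genes. DESeq2, which called 0.568% of all the genes it tested, called CD5, a surface receptor of T cells. What part fibroblast, mural or T cell content has in the values of MMRN2, CD93 and EMILIN1 was not tested.

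The genes most like each of the 6 in pattern were ranked by Pearson's r of log2(value + 0.5) over the 7 libraries among the genes tested. For MMRN2 they were LOC100525721 (r = 0.978), TCFL5, a transcription factor (0.963), SIDT2, a lysosomal membrane protein (0.961), NOL6, a nucleolar protein (0.959) and JUNB, an immediate early transcription factor (0.959). All 5 were lower in each S100a1 library than in any hrLuc library, a pattern found in 5.31% of the genes tested. Since they were picked for likeness to MMRN2 over these same libraries, this split was close to fixed by the choice. Their log2 fold changes ran from -0.67 in JUNB to -0.20 in SIDT2, smaller in size than that of MMRN2. For CD93 the genes most alike were CDCA2 (0.989), MAPKBP1 (0.984) and KIT, a receptor tyrosine kinase (0.982). For CLEC14A they were ZNF318 (0.980), ARL6IP6 (0.977) and TOPORS (0.974).

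For MMRN1 the genes most alike were LOC100525750 (r = 0.937), CTNS (0.929) and ZDHHC1 (0.921). For EMILIN1 they were WDR76 (0.985), METTL9 (0.978) and LOC106505107 (0.974), and for EMILIN2 NPDC1 (0.994), MSI1 (0.965) and ADGRV1 (0.965). Among the 6 genes themselves, r was 0.81 between MMRN2 and CD93, 0.80 between MMRN2 and EMILIN1 and 0.81 between CD93 and EMILIN1. It was 0.38 between MMRN2 and CLEC14A and -0.51 between MMRN2 and MMRN1. With 7 libraries that also share their group, these values are a description.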

How the data were processed

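Total RNA was isolated with the AllPrep kit and sequenced after ribosomal depletion, per the labels' protocols. The submitters' processing notes list DESeq2 1.33.1, FastQC 0.11.8, R 4.1.2 and the build Sscrofa11.1. No aligner, counting program or use of strand is stated in them. Deposited values are a normalized signal, namely reads per RefSeq transcript over a size factor of the library. In each library 100% of them were whole multiples of 1 read within 0.01 read. The deposited log2 column, ratio column and p-value column are the authors' own comparison.

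All 63562 rows matched a RefSeq gene, and 34297 had values identical to another row of their gene. Genes with at least 10 in at least 3 libraries were fitted with limma 3.58.1 (R 4.3.3, mean-variance trend) on log2(value + 0.5), two-sided, with Benjamini-Hochberg adjustment. The fit was tested on simulated data. Alternatives were limma-voom, DESeq2 1.42.0 and edgeR 4.0.16 on recovered reads, other normalizations, filters, pseudocounts, priors and transcript rows, the replicate number as a block, and each library left out. The fit over all distinct transcript rows was added after seeing the data.

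The 6 genes, the 13 lists and the tests were chosen with earlier results of these data known. Named genes are the 6, genes overlapping them or within 500 kb of MMRN2, the 2 of smallest p and lineage-defining members of lists, and the genes of most similar pattern. Other genes of the lists are named to show members by role, chosen after their values were seen.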

Additional observations from a re-analysis of the deposited data

Results flagged for a closer look

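In S100a1 replicate 1 the neighbouring gene LDB3 had 83750 normalized counts, against 67880 to 69701 in the other 3 libraries of the group, a gap of 0.885 of the range of the group. This was the 1 flag among 37 groups of 4 values examined, where chance flags about 1 group in 20. None of the 6 genes was flagged.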

How the results depend on the processing

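The log2 fold change of MMRN2 ran from -0.99 to -0.84 over 21 alternatives, with both ends among those that leave out a library. Of 105 values of the other 5 genes under alternatives, 0 passed the threshold. The lowest adjusted p was 0.239 for CD93 and 0.319 for EMILIN1, both in DESeq2, and they stayed negative, at -0.39 to -0.27 and -0.37 to -0.26. With a library left out EMILIN2 ran from -0.16 to 0.01 (positive without hrLuc replicate 3) and CLEC14A from -0.13 to 0.03 (positive without S100a1 replicate 1). The number of genes past the threshold, 2 in limma, was 1 with median centring, 0 in limma-voom (1278 at an unadjusted p under 0.05), 0 over all distinct transcript rows, 89 in DESeq2, and 0 to 3 with a library left out. It was 0 without hrLuc replicate 3 or S100a1 replicate 1, 3 or 4, and 1 without hrLuc replicate 2 or S100a1 replicate 2; the cause was not tested. Of the list genes other than MMRN2, 1 passed in DESeq2 (CD5, a surface receptor of T cells), where 0.568% of all genes tested passed. In the other fits 0 passed.

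With the replicate number as a block, 0 genes passed and MMRN2 was at -0.91. Replicate 4 exists only in S100a1, so in this fit that library adds nothing to the difference between the groups. MMRN2 was likewise at -0.91 with S100a1 replicate 4 left out. Deviations of same-numbered libraries correlated at -0.0749 to 0.0823 over 3 pairs, and 1 of 3 hrLuc libraries correlated best with its own number. With 3 pairs this cannot tell whether same-numbered libraries share more than a number. With 3 and 4 libraries, the width of the intervals limits what can be seen in CLEC14A, MMRN1 and EMILIN2.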
